A study of Mus musculus with 56 samples.

Results

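Cd59a, Inpp5k, Senp3, Slc25a11, Arl3, Zfp106, Map2k2, Adgrl1 and Rbms3 were followed in mouse gastrocnemius, a calf muscle of mostly fast fibres, across sexes, genotype labels and wheel access. They make up 9 of the 14321 genes that passed the filter on low counts, out of 15539 genes in the deposited table, and all 9 passed it. The genes were chosen by their values in male mice, because the change between running and locked wheels in male mice labelled HuR knockout stood out or differed from the change in male controls. No cut-off goes with that choice. The male wheel comparisons are therefore described without a test, and the 28 female mice, whose values did not enter the choice, carry the tests. In the model fit the spread of a gene is estimated over all 8 groups. Male values thus enter the female intervals and adjusted p-values through that spread. HuR is the RNA-binding protein encoded by Elavl1. The study compared gastrocnemius RNA of C57Bl/6 mice of both sexes that were labelled either controls or HuR skeletal muscle knockout, with locked wheels or with running wheels for 10 weeks. The 8 groups of 7 mice are MC (male controls, locked wheel), MCE (male controls, running wheel), MH (male HuR knockout label, locked wheel), MHE (male HuR knockout label, running wheel) and, in the same way for females, FC, FCE, FH and FHE. The labels give every mouse as 5 months old and place the wheel exposure between 10 and 20 weeks of age. In the study, Elavl1 was floxed in controls and knockout mice alike, and the knockout mice also carried Cre under the Mlc1f promoter, which is active in muscle fibres and not in the other cells of the tissue.

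HuR binds AU-rich stretches in messenger RNAs, mostly in 3′ untranslated regions, and is known for changing how long such messengers last. In muscle it has been linked to fibre metabolism, and voluntary wheel running is a common way to train the same tissue. The 9 genes belong to no single pathway. Senp3 is a protease that removes the small modifier SUMO from nucleolar proteins, and Inpp5k is an inositol 5-phosphatase that dampens insulin signalling. Slc25a11 is the mitochondrial carrier that exchanges malate for 2-oxoglutarate in the malate-aspartate shuttle, and Cd59a encodes a membrane-anchored inhibitor of the complement attack complex. Arl3 is a small GTPase that releases lipid-modified cargo, Zfp106 is a zinc finger protein that binds RNA and is needed for motor innervation, and Map2k2 is one of the kinases that phosphorylate ERK. Adgrl1 is latrophilin 1, an adhesion receptor of synapses, and Rbms3 binds single-stranded RNA.

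Total counts ran from 6639782 to 21633091 per mouse, and every pair of mice within a group differed by more than counting noise. Levels are given as CPM, the count scaled to a common library size after TMM normalization, and changes as log2 fold changes from voom and limma. Elavl1, the targeted gene, was not called lower under the knockout label in any comparison. It averaged 53.2 ± 7.89 CPM (SD, n = 7) in MC and 51.0 ± 4.41 CPM in MH, and 47.0 ± 13.8 CPM in MCE and 61.1 ± 6.34 CPM in MHE, where it was higher under that label by 0.44 on the log2 scale (adjusted p = 0.0242, limma). In females the means were 44.7 ± 3.1 CPM in FC and 48.6 ± 7.64 CPM in FH, and 53.8 ± 4.65 CPM in FCE and 54.2 ± 4.38 CPM in FHE. The counts are per gene and the deleted exon is not given in the sources used here, so this does not settle the deletion, which the study measured by another assay, and directions below are between labels. Fast fibre markers were listed 6 of 6 and summed to between 50900 and 76100 CPM in every library, as the label of the tissue says. Transcripts of other organs set some libraries apart. The sum of Ins1 and Ins2 was 9.02 to 22.8 CPM in all 7 MHE mice and 15.2 CPM in MCE mouse 28, against at most 0.433 CPM in the other 48 libraries. These are 2 of 5 pancreas markers. Gcg, Prss1 and Cpa1 were not found by symbol among the genes of the deposited table, so their levels are not known. Summed liver markers ran from 2.77 to 3120 CPM and were highest in FC mouse 15 and FH mouse 19, at 3120 and 1560 CPM. A sum of 7 brain transcripts (Snap25, Syt1, Gria2, Nrgn, Slc17a7, Gad1 and Syn1), a list made after MH mouse 9 was seen to stand apart, was 532 CPM in that mouse and over 50 CPM in 12 mice, of which 3 were MH and none MHE. Values without MCE mouse 28, MH mouse 9, FC mouse 15 and FH mouse 19, and without those 12 mice, are given where they matter, and because every MHE library holds insulin transcripts, what goes with them cannot be told apart from the group.

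Senp3, Slc25a11 and Inpp5k lie on chromosome 11, within 5.96 Mb of each other between gene starts (GRCm38, GENCODE M21). Senp3 (ENSMUSG00000005204) covers 69673115 to 69682084 on the minus strand, Slc25a11 (ENSMUSG00000014606) covers 70644196 to 70647479 on the minus strand, 0.971 Mb away, and Inpp5k (ENSMUSG00000006127) covers 75630988 to 75648871 on the plus strand, a further 4.99 Mb away. Cd59a (ENSMUSG00000032679) is on chromosome 2 from 104095801 to 104115354, plus strand. The other 5 genes are spread over chromosomes 2 (Zfp106), 8 (Adgrl1), 9 (Rbms3), 10 (Map2k2) and 19 (Arl3). The promoters of the 4 genes with the largest differences between genotype labels in males are shown so that the 3 neighbours on chromosome 11 can be compared with each other and with Cd59a. Each window is 300 bases of RefSeq sequence (GRCm38.p6), from 250 bases before to 50 after the start, read 5′ to 3′ on the gene's strand, and capitals mark the GC box GGGCGG on either strand.
Senp3, chr11:69682035-69682334, minus strand: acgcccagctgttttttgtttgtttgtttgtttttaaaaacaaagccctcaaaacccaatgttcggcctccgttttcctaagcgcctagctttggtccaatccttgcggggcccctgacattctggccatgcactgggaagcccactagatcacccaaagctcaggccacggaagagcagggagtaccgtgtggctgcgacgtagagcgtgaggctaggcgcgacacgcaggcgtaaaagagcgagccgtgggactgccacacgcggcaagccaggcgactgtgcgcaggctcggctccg
Slc25a11, chr11:70646990-70647289, minus strand: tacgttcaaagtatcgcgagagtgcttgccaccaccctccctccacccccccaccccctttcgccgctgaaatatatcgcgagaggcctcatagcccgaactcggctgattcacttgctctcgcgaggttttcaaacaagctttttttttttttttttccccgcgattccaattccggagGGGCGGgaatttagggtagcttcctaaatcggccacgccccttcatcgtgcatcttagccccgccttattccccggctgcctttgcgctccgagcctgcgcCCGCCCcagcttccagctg
Inpp5k, chr11:75630770-75631069, plus strand: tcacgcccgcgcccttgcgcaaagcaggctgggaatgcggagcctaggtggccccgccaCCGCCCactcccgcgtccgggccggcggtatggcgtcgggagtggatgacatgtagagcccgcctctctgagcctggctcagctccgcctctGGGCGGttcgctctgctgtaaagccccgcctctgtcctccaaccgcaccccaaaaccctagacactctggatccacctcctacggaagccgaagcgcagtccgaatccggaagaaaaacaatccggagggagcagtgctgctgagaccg
Cd59a, chr2:104095551-104095850, plus strand: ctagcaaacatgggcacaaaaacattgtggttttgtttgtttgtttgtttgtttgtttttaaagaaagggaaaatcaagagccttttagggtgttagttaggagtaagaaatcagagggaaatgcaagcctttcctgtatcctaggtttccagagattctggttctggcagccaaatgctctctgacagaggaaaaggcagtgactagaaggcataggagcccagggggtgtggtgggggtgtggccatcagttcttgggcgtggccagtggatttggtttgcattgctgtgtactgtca
The Inpp5k and Slc25a11 windows held 2 GC boxes each, and the Senp3 and Cd59a windows held none. Over all 9 genes 6 windows held a GC box, 1 (Arl3) held the E-box CACGTG, 1 (Rbms3) held TATAAA and none held TGACGTCA. Among 32851 promoters of the same length the shares were 35.7% for the GC box, 7.15% for the E-box, 13.6% for TATAAA and 1.79% for TGACGTCA, all searched on both strands. In Arl3 the E-box shares letters with a GC box. GC content was 58.0% for Senp3, 57.0% for Slc25a11, 65.7% for Inpp5k and 45.7% for Cd59a, around the median of 52.7% for all promoters. None of the 4 motifs occurred in all 3 windows of the genes on chromosome 11. For Slc25a11 the RefSeq start lies inside the longer GENCODE gene.

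In male mice the wheel estimates of Senp3, Cd59a, Inpp5k and Slc25a11 had opposite signs under the genotype labels, and those of the other 5 genes had the same sign. With an adjusted p of 0.05 or less, 5 of 14321 genes (0.0349%) were called for the interaction, the difference between the wheel change under the knockout label and that in controls, and 4 of these were Senp3, Cd59a, Inpp5k and Slc25a11. The fifth was Ins1. This count follows from how the genes were picked and is not a result about them, and edgeR's quasi-likelihood test called none of the 14321 genes, with 1495 at an unadjusted p under 0.05. Male intervals given below are not adjusted for the choice of genes, so whether they include 0 is not a test.

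Senp3 had the largest difference of the 9. The lowest, median and highest values were 10.7, 12 and 16.7 CPM in MC and 3.48, 5.45 and 8.78 CPM in MCE, so that every running male control lay below every locked one. In MH they were 3.17, 7.83 and 11.6 CPM and in MHE 7.50, 9.89 and 15.8 CPM, which overlapped, with medians in the opposite order. The log2 change was -1.14 (95% interval -1.54 to -0.73) in male controls and 0.47 (95% interval 0.06 to 0.89) under the knockout label, and their difference was 1.61 (95% interval 1.03 to 2.19). Without MH mouse 12, which had the lowest Senp3 of all 56 mice, the change under the knockout label was 0.28 and the difference was 1.41. Without the 12 mice with brain transcripts that change was 0.71, and without the 4 libraries named above the difference was 1.82. Counts of Senp3 were low, 39 to 282 per library, so counting error weighs more on it than on the other genes.

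Cd59a was higher in running than in locked male controls. Its values were 37.9, 53.9 and 74.8 CPM in MC and 76.3, 88.4 and 94.9 CPM in MCE, again without overlap. MH mice had 52.6, 58.4 and 98.9 CPM, and MHE mice had 40.9, 60.8 and 78.9 CPM. The highest MH value belonged to mouse 12, the same mouse that was lowest for Senp3. The log2 change was 0.75 (95% interval 0.50 to 1.01) in male controls and -0.15 (95% interval -0.41 to 0.11) in knockout-labelled males, a difference of -0.90 (95% interval -1.27 to -0.54). Without MH mouse 12 the estimate in knockout-labelled males was -0.05, and without the 12 mice with brain transcripts it was -0.27. Without single MHE mice it ran from -0.23 (mouse 6) to -0.06 (mouse 1). The paralog Cd59b had group means of 1.48 to 2.39 CPM, and how reads shared by the pair were assigned was not tested.

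Slc25a11, the malate carrier, had the same shape with less spread. Values were 102, 111 and 117 CPM in MC, 129, 146 and 151 CPM in MCE, 116, 128 and 142 CPM in MH and 99.6, 129 and 139 CPM in MHE. Running and locked male controls did not overlap, whereas the ranges of MH and MHE did. The log2 change was 0.38 (95% interval 0.25 to 0.51) in male controls and -0.06 (95% interval -0.18 to 0.07) under the knockout label, a difference of -0.44 (95% interval -0.62 to -0.26). Its first 245 bases overlap Rnf167 on the opposite strand, and whether strand was used in counting is not given in the sources used here. Zfp106, Adgrl1 and Rbms3 also overlap other genes on the opposite strand. Rnf167, with a median of 16.6 CPM, had log2 changes of -0.07 in male controls and 0.05 under the knockout label.

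Inpp5k had estimates of nearly equal size and opposite sign. Values were 15.5, 17.6 and 19.5 CPM in MC and 13.1, 14.3 and 16 CPM in MCE, with an overlap of 15.5 to 16 CPM. Those of MH were 13, 15 and 16.3 CPM and those of MHE 15.6, 19.8 and 22.7 CPM, which overlapped from 15.6 to 16.3 CPM. The log2 change was -0.30 (95% interval -0.48 to -0.12) in male controls and 0.30 (95% interval 0.12 to 0.48) under the knockout label, a difference of 0.60 (95% interval 0.34 to 0.85). Senp3 and Inpp5k were thus lower in running male controls while Slc25a11, between them on the chromosome, was higher there.

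**Figure D1:**
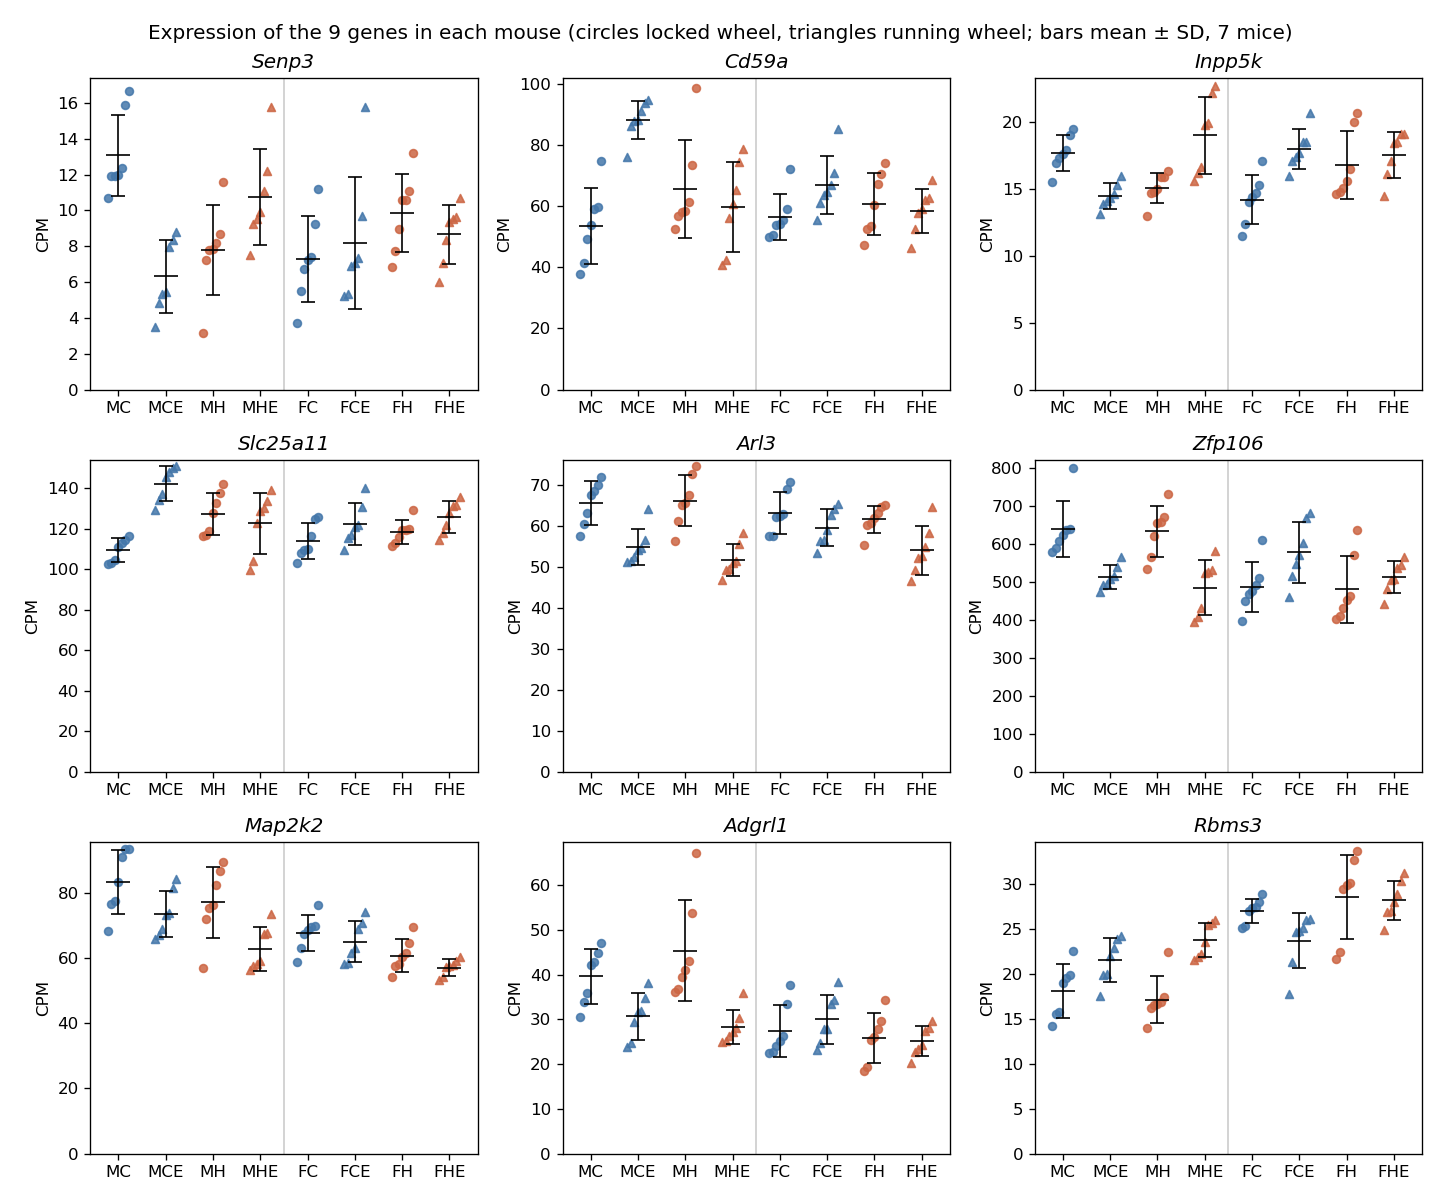
CPM of each of the 9 genes in each mouse (y axis, from 0) for the 8 groups (x axis); circles are locked-wheel and triangles running-wheel mice, blue is the control and orange the HuR knockout label, and black bars are the mean and SD of 7 mice. Running male controls lie apart from locked ones for Senp3 (3.48 to 8.78 against 10.7 to 16.7 CPM), Cd59a, Slc25a11 and Zfp106, and the female groups of every gene overlap.

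The remaining 5 genes, Arl3, Zfp106, Map2k2, Adgrl1 and Rbms3, had estimates of the same sign under both labels in males. These were larger in size under the knockout label. Whether they differed between labels was not tested, since these values chose the genes. In the comparison of MHE with MH, limma called 6 of 14321 genes (0.0419%), of which Arl3, Adgrl1 and Rbms3 were 3, and in that of MCE with MC it called 464 (3.24%), of which 6 were among the 9 genes. Both counts are fixed by the choice of genes. Groups without overlap were found for 34 genes (0.237%) between MHE and MH, among them Adgrl1, and for 143 (0.999%) between MCE and MC, of which 4 were Cd59a, Senp3, Slc25a11 and Zfp106.

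Adgrl1, the latrophilin, had the largest of these estimates under the knockout label. Values were 30.6, 42.2 and 47 CPM in MC and 23.9, 31.7 and 38.2 CPM in MCE, and 36.2, 41.1 and 67.1 CPM in MH and 24.9, 27.1 and 35.8 CPM in MHE. The MH and MHE ranges lay next to each other without overlap. The log2 change was -0.37 (95% interval -0.63 to -0.11) in male controls and -0.66 (95% interval -0.92 to -0.40) under the knockout label, a difference of -0.29 (95% interval -0.66 to 0.08). The highest value of all 56 mice was that of MH mouse 9, with 532 CPM of brain transcripts, and without the 12 mice over 50 CPM of them the changes were -0.47 and -0.44 and their difference was 0.03. Over the 56 mice Adgrl1 and the brain sum had a Pearson r of 0.394, and of 0.527 after group means were removed, and the part of these transcripts in the Adgrl1 values was not tested beyond leaving those mice out.

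Arl3 went from 57.5, 67.7 and 72.1 CPM in MC to 51.2, 54.2 and 64.1 CPM in MCE, lowest, median and highest, and from 56.5, 65.8 and 74.7 CPM in MH to 46.8, 50.9 and 58.4 CPM in MHE. The 2 log2 changes were -0.25 (95% interval -0.39 to -0.11) and -0.36 (95% interval -0.49 to -0.22). Zfp106 had 580.5, 625 and 801 CPM in MC against 474, 508 and 565 CPM in MCE, without overlap, and 533, 655 and 733 CPM in MH against 394, 523 and 581 CPM in MHE. Its log2 changes were -0.32 (95% interval -0.50 to -0.13) and -0.39 (95% interval -0.58 to -0.21). Both genes therefore had lower medians in running than in locked males whatever the label.

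Map2k2, which encodes MEK2, went from a median of 83.4 CPM in MC to 73.2 CPM in MCE and from 76.4 CPM in MH to 59.1 CPM in MHE, with overlapping ranges in both pairs. Its log2 changes were -0.18 (95% interval -0.33 to -0.02) and -0.29 (95% interval -0.45 to -0.13). Rbms3 was the one of the 5 with higher levels in running males. Its values were 14.2, 19 and 22.5 CPM in MC and 17.5, 22 and 24.2 CPM in MCE, and 13.9, 16.6 and 22.4 CPM in MH and 21.5, 23.5 and 26 CPM in MHE, where the highest MH mouse kept the last pair of ranges from separating. The log2 changes of Rbms3 were 0.23 (95% interval 0.03 to 0.44) and 0.48 (95% interval 0.28 to 0.68). The differences between labels for Arl3, Zfp106, Map2k2 and Rbms3 were -0.11, -0.08, -0.11 and 0.25 on the log2 scale.

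**Figure D2:**
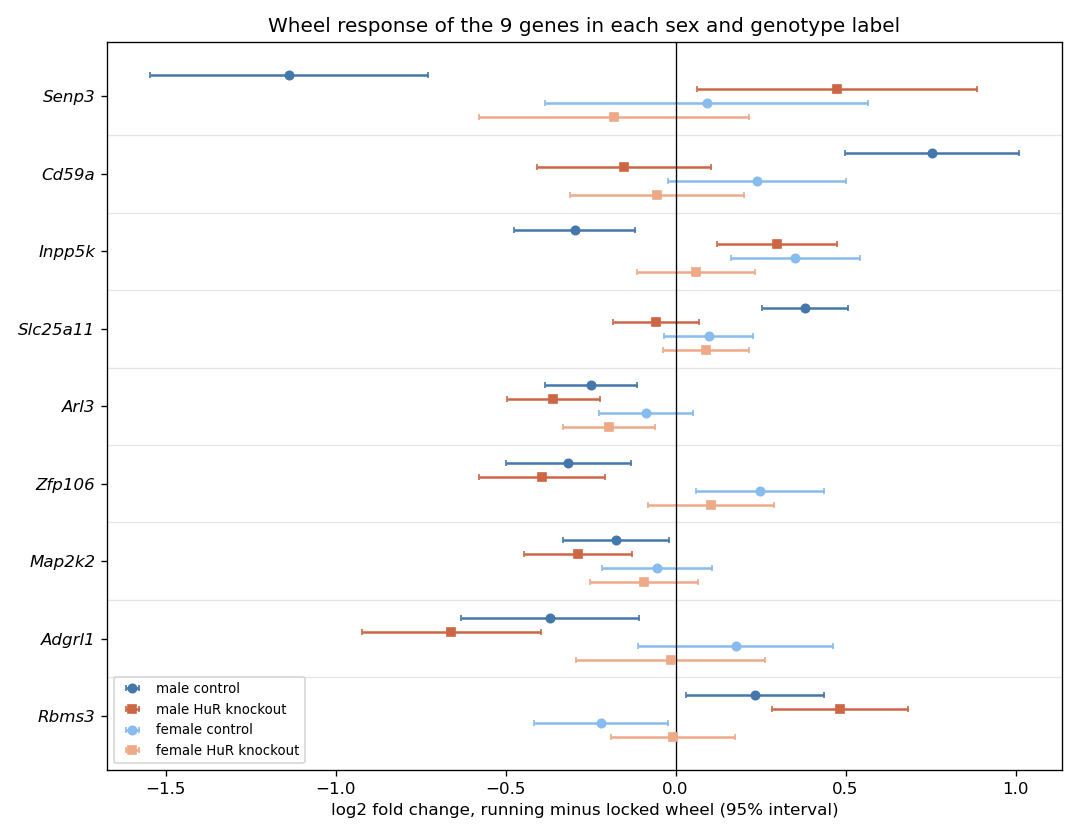
Log2 fold change of running against locked wheels (x axis) with its 95% interval from limma for each gene (y axis) in male controls, male HuR knockout label, female controls and female HuR knockout label, 7 mice a group. For Senp3 the male estimates have opposite signs (-1.14 and 0.47, the latter 0.28 without MH mouse 12), and of the 18 female estimates Inpp5k in controls (0.35) is the one called.

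The female mice tested whether the same genes responded to the wheel by label. For the female interaction limma called 0 of 14321 genes (0.0%), with 1472 at an unadjusted p under 0.05, and edgeR's quasi-likelihood test called 0 and DESeq2 11. None of the 9 genes was called by any of the 3 tools, and 1 had an unadjusted p under 0.05. That was Inpp5k, with a difference of -0.29 (95% interval -0.55 to -0.03, adjusted p = 0.429, limma), opposite in sign to the males. Senp3 differed by -0.27 (95% interval -0.89 to 0.35, adjusted p = 0.804, limma), Cd59a by -0.29 (95% interval -0.66 to 0.07, adjusted p = 0.594, limma) and Slc25a11 by -0.01 (95% interval -0.19 to 0.17, adjusted p = 0.984, limma). The difference between the sexes was not tested, because the male values had been used in the choice. Intervals for the other 5 genes included 0, with estimates from -0.19 for Adgrl1 to 0.21 for Rbms3.

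In female controls, limma called 1251 genes (8.74%) between FCE and FC, and 1 of the 9 was among them. Inpp5k was 11.5, 14.4 and 17.1 CPM in FC and 16, 17.7 and 20.7 CPM in FCE, lowest, median and highest. The ranges overlapped from 16 to 17.1 CPM, with most running females above most locked ones. Its log2 change was 0.35 (95% interval 0.16 to 0.54, adjusted p = 0.0137, limma) in limma over all genes, and the two-sided exact permutation p of 7 against 7 mice was 0.00117. edgeR and DESeq2 called the same gene. The direction was opposite to male controls, where the estimate was -0.30. Leaving out FCE mouse 27 gave an adjusted p of 0.053 in limma, and without the 12 mice with brain transcripts the change was 0.26 with an adjusted p of 0.219.

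The other 8 genes were not called in female controls. Zfp106 was 397, 477 and 610.3 CPM in FC and 459.5, 571 and 682 CPM in FCE, with a log2 change of 0.25 (95% interval 0.06 to 0.44, adjusted p = 0.083, limma). The estimate was positive, while both male estimates were negative. Leaving out FC mouse 18 or FCE mouse 25 put its adjusted p at 0.0324 or 0.0376 in limma, leaving out FCE mouse 1 put it at 0.207, and without the 12 mice with brain transcripts the estimate was 0.10 with an adjusted p of 0.685. Rbms3 had 25.1, 27.3 and 28.8 CPM in FC and 17.7, 24.7 and 26.1 CPM in FCE, a log2 change of -0.22 (95% interval -0.42 to -0.02, adjusted p = 0.16, limma), and a raw exact permutation p of 0.00758. Cd59a, at 49.9, 54.2 and 72.1 CPM in FC and 55.4, 64.6 and 85.5 CPM in FCE, had an estimate of 0.24 (95% interval -0.02 to 0.50, adjusted p = 0.268, limma). Slc25a11 was 103, 110.1 and 126 CPM in FC and 109, 121 and 140.3 CPM in FCE, with an estimate of 0.10 (95% interval -0.03 to 0.23, adjusted p = 0.384, limma). Senp3 was 3.73, 7.25 and 11.2 CPM in FC and 5.23, 7.04 and 15.8 CPM in FCE. Its estimate was 0.09 (95% interval -0.38 to 0.57, adjusted p = 0.866, limma). That estimate took the opposite sign without FC mouse 15, and was -0.041 without FCE mouse 25, the highest of its group. No gene of the 9 had FCE and FC ranges apart, where 317 of all genes (2.21%) did.

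Under the knockout label in females, limma called 551 genes (3.85%) between FHE and FH and none of the 9, of which 1 had an unadjusted p under 0.05; edgeR and DESeq2 called none of the 9 either. That 1 was Arl3, at 55.3, 62.1 and 65.3 CPM in FH and 46.6, 52.8 and 64.6 CPM in FHE, with a log2 change of -0.20 (95% interval -0.33 to -0.06, adjusted p = 0.0891, limma) and a two-sided exact permutation p of 0.014. Leaving out FHE mouse 7 or FH mouse 13 brought its adjusted p in limma to 0.0428 or 0.048, and leaving out FHE mouse 2 brought it to 0.227. Arl3 was also the gene with negative estimates in all 4 wheel comparisons together with Map2k2, whose female estimates were -0.09 under the knockout label and -0.05 in controls. Adgrl1 had a female estimate of -0.01 (95% interval -0.29 to 0.26, adjusted p = 0.976, limma). Rbms3 stood at -0.01 (95% interval -0.19 to 0.17, adjusted p = 0.979, limma). No FHE and FH ranges were apart for the 9 genes, against 114 (0.796%) of all genes. The median absolute log2 change of the 9 genes was 0.0898 between FHE and FH and 0.177 between FCE and FC, beside 0.166 and 0.201 over all genes tested.

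Between labels at the same wheel in females, limma called 55 genes (0.384%) for FH against FC and 0 (0.0%) for FHE against FCE. None of the 9 was among them, with 2 and 3 of the 9 at an unadjusted p under 0.05, and edgeR and DESeq2 called none of the 9. Over all genes FHE against FCE had 1806 at an unadjusted p under 0.05, and edgeR called 0 and DESeq2 71. In locked females the estimate of FH against FC was 0.24 (95% interval 0.06 to 0.43, adjusted p = 0.203, limma) for Inpp5k and 0.49 (95% interval 0.05 to 0.93, adjusted p = 0.284, limma) for Senp3, beside -0.23 and -0.80 for MH against MC. In running females Rbms3 differed by 0.28 (95% interval 0.09 to 0.47, adjusted p = 0.203, limma), with an exact permutation p of 0.0035, and Map2k2 by -0.19 (95% interval -0.35 to -0.03, adjusted p = 0.299, limma), with an exact permutation p of 0.00583. Arl3 differed by -0.14 (95% interval -0.28 to -0.01, adjusted p = 0.373, limma). These 5 estimates did not pass the adjustment over all genes. Exact permutation p-values were computed for each of the 9 genes between pairs of female groups, 36 in all, and are raw.

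When the groups of a gene were ordered by mean, every one of the 7 neighbouring pairs overlapped in range, for each of the 9 genes. The highest and lowest groups were apart for Cd59a (88.4 CPM in MCE and 53.7 CPM in MC), Senp3 (13.1 CPM in MC and 6.31 CPM in MCE), Slc25a11 (142 CPM in MCE and 109 CPM in MC), Map2k2 (83.5 CPM in MC and 57.1 CPM in FHE) and Adgrl1 (45.4 CPM in MH and 25.1 CPM in FHE). They overlapped for Inpp5k, Arl3, Zfp106 and Rbms3. The ends are the most extreme of the 8 groups and include male groups, whose values chose the genes. The share of all genes with such ends apart was not counted, so this is a description and not a result about the 9 genes. For Senp3, Cd59a and Slc25a11 the 2 ends of the order were the male control groups, and the 4 female groups lay between them. Adgrl1 and Map2k2 were highest in locked males of both labels, and Rbms3 was lowest there, at means of 18.1 CPM in MC and 17.1 CPM in MH against 27 CPM in FC and 28.5 CPM in FH.

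Genes next to Senp3, Slc25a11 and Inpp5k were read in the same comparisons. Among the 3 nearest tested genes on each side of each, 18 in all, limma called 1 in male controls (4 at an unadjusted p under 0.05), 0 under the male knockout label (0), 0 for the male interaction (2), 1 under the female knockout label (6), 2 in female controls (4) and 0 for the female interaction (2). edgeR gave the same numbers in each comparison, and DESeq2 gave 0 in male controls and otherwise the same. Over all 14321 genes, in the same order, limma called 464 (3.24%), 6 (0.0419%), 5 (0.0349%), 551 (3.85%), 1251 (8.74%) and 0 (0.0%). Those at an unadjusted p under 0.05 in limma were 2405, 1821, 1275, 2492, 3342 and 1472. The counts of neighbours are descriptions beside these. The neighbour that limma called in male controls was the transcript Tnfsf13os. It runs on the opposite strand from 69682138, 53 bases beyond the 5′ end of Senp3, and so begins inside the Senp3 promoter window printed above. Tnfsf13os had 1.44, 2.64 and 2.89 CPM in MC and 0.793, 1.21 and 1.58 CPM in MCE, and fell by 0.92 on the log2 scale with an adjusted p of 0.0221 in limma, beside the -1.14 of Senp3. Under the male knockout label its change was -0.03, with 1.07, 1.84 and 2.45 CPM in MH and 1.44, 1.74 and 2.06 CPM in MHE. At such low counts the groups overlap. Senp3 and Tnfsf13os do not overlap as annotated, and whether reads of either gene run into the other was not tested.

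Eif4a1, a translation factor 691 bases from the 3′ end of Senp3, had a log2 change of 0.05 in male controls and 0.00 under the male knockout label. Pfn1, near Slc25a11, encodes the actin-binding profilin and had estimates of -0.73 in male controls and 0.38 under the knockout label, with adjusted p-values of 0.275 and 0.705 in limma. Pitpna, 2183 bases before Inpp5k, and Myo1c, 1632 bases after it, had changes between -0.12 and 0.13 in both male comparisons. Slc43a2, an amino acid transporter near Inpp5k, was higher in running females of the knockout label by 0.42 (adjusted p = 0.0455, limma). In female controls Polr2a, the large subunit of RNA polymerase II, was higher by 0.24 (adjusted p = 0.0263, limma) and Eif4a1 was lower, with a log2 change of -0.37 (adjusted p = 0.0361, limma). Of the 1142 tested genes on chromosome 11, 3 were called for the male interaction, and these were the 3 named genes. That count is fixed by the choice of genes, beside 5 (0.0349%) called of all 14321, and is not a result about the chromosome.

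**Figure D3:**
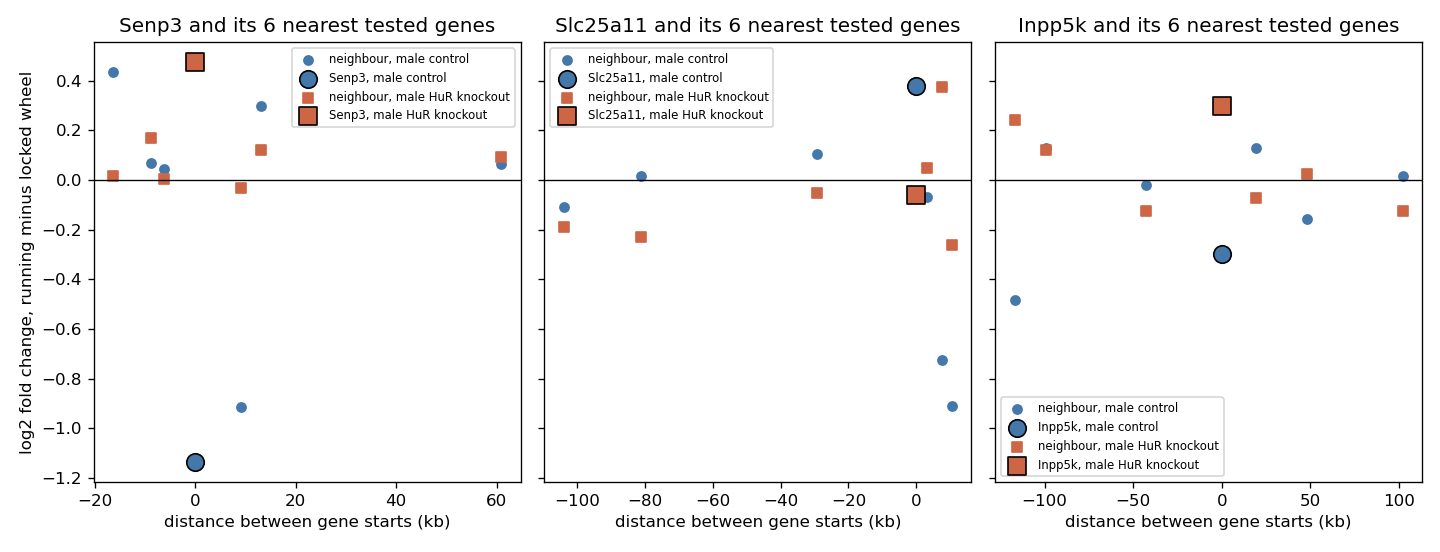
Log2 fold change of running against locked wheels (y axis) in male controls (circles) and males of the HuR knockout label (squares) for Senp3, Slc25a11 and Inpp5k (large symbols at 0) and for the 3 nearest tested genes on each side, by distance between gene starts in kb (x axis). Tnfsf13os, 9.02 kb from the start coordinate of Senp3, has -0.92 in male controls beside -1.14 for Senp3, and Pitpna and Myo1c on either side of Inpp5k lie between -0.12 and 0.13.

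Correlations between the 9 genes were larger over all mice than within groups for several pairs. Over the 56 mice the Pearson r of log2 CPM was -0.72 between Adgrl1 and Rbms3, -0.617 between Map2k2 and Rbms3, 0.582 between Map2k2 and Adgrl1 and 0.57 between Zfp106 and Map2k2. After group means were removed these were -0.282, -0.0864, 0.172 and 0.378. Senp3 and Inpp5k had 0.39 and 0.102, Senp3 and Slc25a11 had -0.336 and -0.0394, and Cd59a and Slc25a11 had 0.378 and -0.107, before and after. Inpp5k and Slc25a11 had -0.265 and -0.21. Other pairs were larger in size after group means were removed. Slc25a11 had -0.103 before and 0.376 after with Arl3, 0.0771 and 0.295 with Zfp106, and 0.0596 and 0.261 with Map2k2. Arl3 and Zfp106 had 0.196 and -0.251. These points share libraries and scaling, and r over all mice carries the male group differences that chose the genes.

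**Figure D4:**
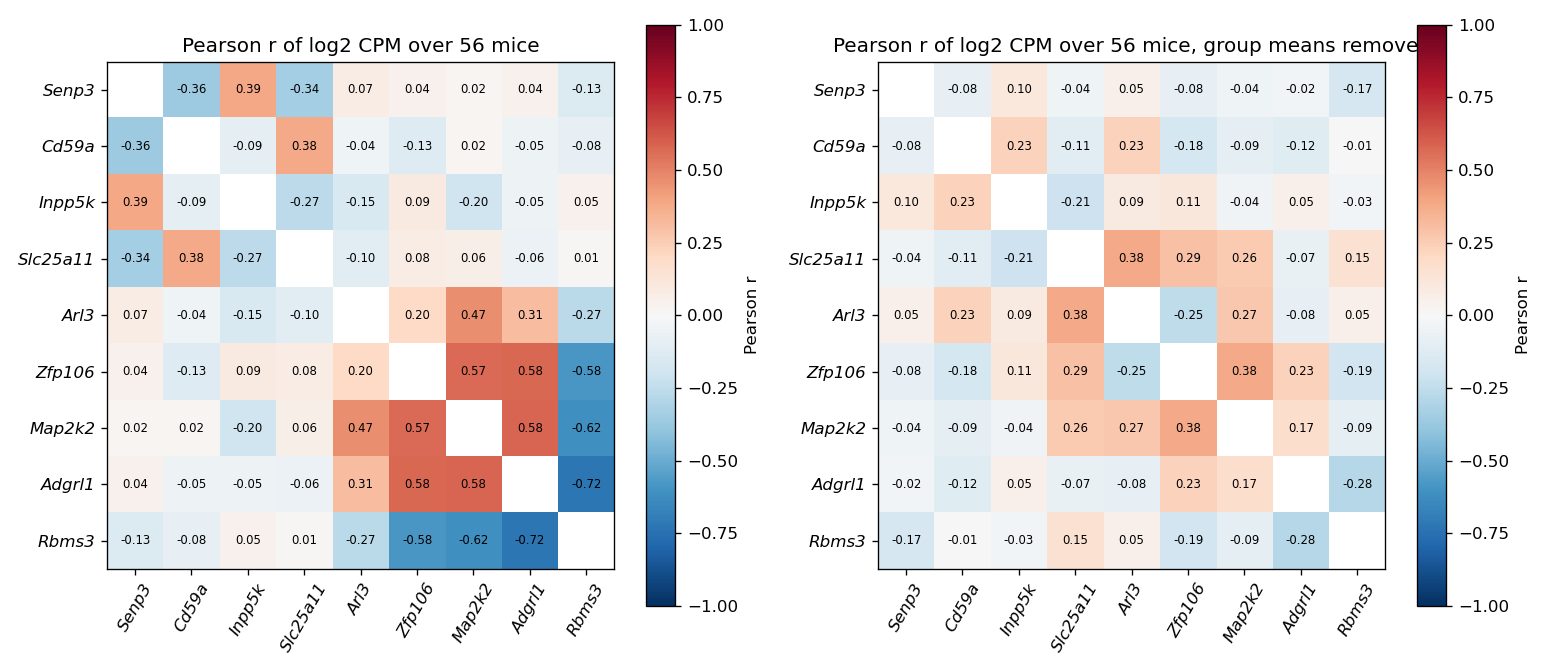
Pearson r of log2 CPM between the 9 genes over 56 mice (left) and after removing the mean of each group (right), on a colour scale from -1 to 1. The block of Zfp106, Map2k2, Adgrl1 and Rbms3 is strong on the left (-0.72 for Adgrl1 with Rbms3) and weaker on the right (-0.282).

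Among all other tested genes, the one most alike to Senp3 over the 56 mice was Ensa (r = 0.85, and 0.863 within groups), an inhibitor of protein phosphatase 2A, whose log2 change was -0.57 in male controls and 0.00 under the male knockout label. Prkar2a, a regulatory subunit of protein kinase A, was most alike to Zfp106 (0.872 and 0.857), with -0.23 in both male comparisons. For Slc25a11 it was Tbrg4, a mitochondrial RNA regulator on the same chromosome (0.713 and 0.685), with 0.43 in male controls and -0.05 under the knockout label. Cd59a was most alike to Ldhd, the mitochondrial D-lactate dehydrogenase (0.623 and 0.445), Inpp5k to Zfp871 (0.549 and 0.396), Arl3 to Dohh (0.649 and 0.489), Map2k2 to Adipor1, an adiponectin receptor (0.846 and 0.66), Adgrl1 to Hlf, a clock-controlled transcription factor (0.75 and 0.537), and Rbms3 to Mfap5, a microfibril protein of connective tissue (0.833 and 0.557). The r within groups stayed close to that over all mice for Senp3, Zfp106 and Slc25a11 and was lower for the others. Each of these genes was picked for its r over the same mice, male values included. A like change in males follows in part from that pick and adds no separate evidence.

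Summed cell type markers were set beside the 9 genes, as descriptions over 56 mice. Zfp106 had an r of 0.744 with the 6 fast fibre markers (0.637 within groups), which ran from 63100 to 74100 CPM in MC, 58000 to 68500 CPM in MCE, 61800 to 76100 CPM in MH and 58400 to 68000 CPM in MHE. In females these markers ran from 53200 to 62800 CPM in FC, 59900 to 67500 CPM in FCE, 52300 to 71600 CPM in FH and 50900 to 61400 CPM in FHE. Like Zfp106, they had lower medians in running than in locked males. Map2k2 had -0.725 with the 5 slow fibre markers (-0.323 within groups), whose sums ran from 611 to 892 CPM in MC, 620 to 1120 CPM in MCE, 632 to 1720 CPM in MH and 855 to 1640 CPM in MHE. In females they ran from 841 to 1270 CPM in FC, 1070 to 1660 CPM in FCE, 1280 to 2050 CPM in FH and 1410 to 1990 CPM in FHE. Adgrl1 had -0.71 with the 7 adipocyte markers (-0.44 within groups), and Arl3 had -0.5 with the 4 endothelial markers (-0.054 within groups). Rbms3 had 0.713 with the 6 leukocyte markers (0.472 within groups), whose group medians were 61.0 CPM in MC, 93.6 CPM in MCE, 63.2 CPM in MH and 76.0 CPM in MHE, and 126 CPM in FC, 63.8 CPM in FCE, 118 CPM in FH and 98.0 CPM in FHE. Senp3, Cd59a, Inpp5k and Slc25a11 had at most 0.342 in size with any list. For the other 5 genes the list given is the one with the largest r in size, and other lists came close. Map2k2 had 0.662 with the fast fibre markers (0.459 within groups), and Zfp106 had -0.689 with the leukocyte markers (-0.491). Adgrl1 had -0.655 with the leukocyte markers (-0.434), and Rbms3 had 0.666 with the adipocyte markers (0.0752). In whole muscle a change in the share of a cell type and a change in its RNA cannot be told apart, and the part of these markers in the changes was not tested.

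Genes that work with the 9 were read from lists of 74 genes, 73 of which were tested. In the male knockout label comparison limma called 0 of them (10 at an unadjusted p under 0.05; edgeR 0, DESeq2 1), and for the male interaction 0 (5; 0 and 0), beside 4 in male controls, 4 under the female knockout label, 10 in female controls and 0 for the female interaction (6; 0 and 0). As shares of 73 these stand beside the background of 3.24%, 3.85% and 8.74% given above. In the SUMO pathway of 15 tested genes, Pias4, a SUMO ligase, fell in male controls (log2 change -0.43, adjusted p = 0.0106, limma). The related protease Senp2 rose in female controls by 0.39 (adjusted p = 0.0173, limma).

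Of the 10 inositol 5-phosphatases, Inppl1, which encodes SHIP2, rose in running females, by 0.25 under the knockout label (adjusted p = 0.0208, limma) and 0.30 in controls (adjusted p = 0.00383, limma), next to the 0.35 of Inpp5k in female controls. Around Slc25a11, the malate-aspartate shuttle had 6 tested partners. The cytosolic malate dehydrogenase Mdh1 rose in male controls by 0.34 (adjusted p = 0.0164, limma), beside the 0.38 of Slc25a11, and was at 0.14 (adjusted p = 0.543) under the male knockout label. The aminotransferases Got1 and Got2 rose in female controls by 0.36 and 0.29 (adjusted p = 0.0108 and 0.0493, limma). Of the 8 genes in the ARL3 cycle limma called 0 in each of the 4 wheel comparisons, with 1 at an unadjusted p under 0.05 in male controls, 2 under the male knockout label, 4 under the female knockout label and 0 in female controls. edgeR and DESeq2 each called 1 in male controls and 0 in the other 3.

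In the ERK cascade of 12 genes, the phosphatase gene Dusp6 rose in male controls by 0.65 (adjusted p = 0.0231, limma) and under the female knockout label by 0.53 (adjusted p = 0.0472, limma), where edgeR and DESeq2 did not call it, and the scaffold gene Ksr1 rose in female controls by 0.40 (adjusted p = 0.00435, limma). Map2k1, the partner kinase of Map2k2, had -0.24 in male controls and -0.04 under the male knockout label, neither called. Of 10 complement control genes, Cd46 rose in running females of both labels, by 0.88 under the knockout label and 0.87 in controls (adjusted p = 0.0128 and 0.00605, limma), and Serping1 and C3 fell in female controls, with log2 changes of -0.64 and -0.78 (adjusted p = 0.00106 and 0.00556, limma). None of the 10 was called in either male wheel comparison by limma, edgeR or DESeq2, with 4 at an unadjusted p under 0.05 in controls and 1 under the knockout label in limma. Among latrophilins and their partners, Flrt1, a ligand of latrophilins, fell in male controls (log2 change -0.87, adjusted p = 0.00596, limma; DESeq2 called none of this list there) and had -0.51 under the male knockout label (adjusted p = 0.305). Neither Rbms1 nor Rbms2 was called in a wheel comparison by limma, edgeR or DESeq2.

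Since HuR binds AU-rich sequence, the longest annotated 3′ untranslated region of each gene was searched for AUUUA. It was present in 7 of the 9 genes and absent from the longest regions of Inpp5k and Arl3, while 70.5% of 12864 tested genes with such a region held it. Rbms3 had 8 copies in 5950 bases, Zfp106 4 in 3266, Map2k2 2 in 1607, and Cd59a, Senp3, Slc25a11 and Adgrl1 1 each. Per kb the count was 2.43 for Senp3, 1.75 for Slc25a11 and 0.852 for Cd59a, beside a median of 1.32 over all genes searched.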

How the data were processed

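RNA from the gastrocnemius of 56 mice was measured, 7 in each of 8 groups. The deposited values are whole-number counts per gene, which the authors made by read alignment and counting. The submitters' notes name GRCm38 (mm10), R 4.0.3 and edgeR 3.38.4, and the aligner and the strand setting are not given in the sources used here. The labels describe a 3′ kit and the study's methods a library of total RNA without ribosomal RNA, so counts were not compared between genes per length. The smallest total of a gene was 168 counts. Of 15539 genes, 14321 passed filterByExpr. Counts were scaled by TMM (edgeR 4.0.16) and fitted over all 8 groups with voom and limma 3.58.1 (R 4.3.3), with Benjamini-Hochberg adjustment over all genes tested and a threshold of 0.05. DESeq2 1.42.0 and edgeR's quasi-likelihood test were alternatives, and scripts were tested on simulated data. Exact two-sided permutation tests compared log2 CPM with a pseudocount of 0.5 (scipy 1.17.1). Benjamini-Hochberg adjustment over the family of these tests was planned and not applied, so their p-values are raw and small ones are not calls. The genes, lists and named neighbours were chosen with earlier results of these data known. Controls were littermates of the knockout mice, and which mice shared a litter is not given in the sources used here, so litter could not enter the fit and p-values measure the spread between these samples. Totals of 6639782 to 21633091 counts limit genes of low level such as Senp3. Some genes of the pathway lists are counted but not reported here by name.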

Additional observations from a re-analysis of the deposited data

Results flagged for a closer look

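Dixon's ratio was taken on log2 CPM for 72 sets of 7 values (9 genes in 8 groups). The CPM values given below do not give the same ratio, and on CPM Senp3 in MH mouse 12 would not be marked. At the 95% critical value of the ratio on log2 CPM, 2 of the 72 sets held a value far from the rest. Chance alone marks about 1 in 20 such sets. Senp3 in MH mouse 12 was 3.17 CPM, below the next lowest MH mouse at 7.26 CPM. Zfp106 in MC mouse 20 was 800.7 CPM, the highest of all 56 mice. The wheel response in males differed between labels on the log2 scale by -0.904 for Cd59a, 0.595 for Inpp5k, 1.61 for Senp3 and -0.438 for Slc25a11. These differences chose the genes and were not tested again.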

How the results depend on the processing

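No paired analysis was possible because the groups compared within a sex share no animal number. Counts of genes called by limma moved by over 1.5 times as follows. The male interaction (5) gave 0 with edgeR, 13 with DESeq2, 3 with at least 10 counts in every mouse, 34 with quality weights, 0 in a fit of one sex, and 1 to 9 when single mice were left out. MHE against MH (6) gave 46 with edgeR, 226 with DESeq2, 16 with quality weights, 2 without the 4 libraries that stand apart, 2 without the 12 with brain transcripts, and 2 to 10 without single mice. MCE against MC (464) gave 1046 with quality weights and 194 to 618 without single mice. The female interaction (0) gave 11 with DESeq2, 2 without the libraries that stand apart and 0 to 2 without single mice. FCE against FC (1251) gave 436 without the brain libraries and 770 to 1459 without single mice. FHE against FH (551) stayed between 398 and 663 without single mice. FH against FC (55) gave 169 with DESeq2, 100 with at least 10 counts, 22 in a fit of one sex, 15 without the libraries that stand apart, 0 without the brain libraries, and 0 (without FC mouse 16) to 170.0 (without FH mouse 30). FHE against FCE (0) gave 71 with DESeq2, 2 with at least 10 counts, 16 with quality weights, 2 without the brain libraries and 0 to 6 without single mice.

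Estimates near 0 took the opposite sign, none of them called. Without the brain libraries these were Inpp5k in FHE against FCE (0.0614), Slc25a11 in FH against FC (-0.0142) and FHE against FCE (-0.0267), and the female interactions of Zfp106 (0.00867) and Map2k2 (0.014). Without the libraries that stand apart they were Senp3 in FCE against FC (-0.0423), Zfp106 in FH against FC (0.0171) and Rbms3 in FHE against FH (0.00635). Quality weights gave 0.0213 for the female interaction of Map2k2 and 0.0614 for Adgrl1 in FHE against FH. Without single mice the ranges were -0.041 to 0.186 for Senp3 in FCE against FC, -0.0985 to 0.0258 for Zfp106 in FH against FC, -0.0959 to 0.0711 for Adgrl1, -0.0706 to 0.0389 for Rbms3 and -0.105 to 0.0032 for Cd59a in FHE against FH, and -0.0312 to 0.0276 for the female interaction of Slc25a11. The causes were not tested. The 2 sets without libraries were chosen after the data were seen.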
